A study of Homo sapiens with 24 samples.

Results

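The genes described here are 50 that encode the machinery of autophagy or proteins of the lysosome, 25 of each. They come from a list of gene names, and the rule uses no expression change. The list was chosen with earlier results of these data known. Its shares of calls beside those of all features are therefore descriptive. The array annotation gave 49 of them a probe of their own symbol. The rule kept a gene when a probe was detected, at a detection p-value under 0.01 against the negative controls of the array, on at least 4 of 24 arrays, and the probe with the brightest mean stood for it. This left 43 tested genes, 22 of the autophagy machinery and 21 lysosomal, among 12149 tested features. NBR1, ATG13, TFEB and HEXA were not detected on any array, ASAH1 was detected on 2 arrays, GAA on 3, and CD63 had no listed probe. Just inside the rule were ATG4B and CTSZ, each detected on 7 arrays. ATG4B met it only with the EGBG arrays and CTSZ only with the undifferentiated arrays, so the rule favoured high levels in those groups.

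RNA came from N/TERT1, one immortalized line of human keratinocytes, measured on 24 Illumina bead arrays in 6 groups of 4. All cells that had been differentiated were switched at high confluence to medium with 1.2 mM calcium and harvested on day 6. On day 3 they received 50 µM EGBG together with SDSM, EGBG alone, SDSM alone (spermidine and spermine at 1 mM), PUT (putrescine at 1 mM) or nothing, the last group being called day 6. Undifferentiated cells were grown below confluence at 0.3 mM calcium. EGBG inhibits AMD1, the S-adenosylmethionine decarboxylase that supplies the aminopropyl donor for making spermidine and spermine from putrescine. The labels do not say whether 1 mM is the dose of each polyamine in SDSM or of the mixture. Calcium, confluence and time in culture differ together between day 6 and undifferentiated cells. The record calls the arrays of a group biological replicates without saying that they were separate cultures, so p-values measure the spread between these samples, which may be technical.

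In autophagy, the ULK1 kinase complex and a phosphatidylinositol 3-kinase complex start a membrane that WIPI proteins recognise, and conjugation enzymes attach proteins of the ATG8 family (LC3 and GABARAP) to it. Cargo receptors such as SQSTM1 tether material to the ATG8 proteins, and the closed autophagosome fuses with a lysosome, whose proton pump keeps the acid pH that cathepsins, glycosidases and lipases need. Many lysosomal genes carry the CLEAR element, a promoter motif with the core CACGTG bound by TFEB and its relatives. In the epidermis, keratinocytes lose their organelles as they become cornified cells, and spermidine is known as an inducer of autophagy in several organisms.

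RefSeq promoters on GRCh38.p14, windows from upstream of the gene start to just past it, were available for 41 of the 50 genes, the others being MAP1LC3A, UVRAG, LAMP2, CTSB, HEXA, PSAP, ATP6V1A, ATP6V1H and ASAH1. The letters CACGTG, the same on both strands, were found in 9 of these 41 (22%), against 7.43% of all 27305 promoters of the same length. The longer form TCACGTGA, which contains it, was found in 6 (14.6%), against 1.04% of all promoters. The 9 genes were LAMP1, MCOLN1, ATP6V0D1, CTSA, CTSD, GAA and CD63 of the lysosome (7 of 18 lysosomal promoters) and ATG3 and ATG14 of the autophagy machinery (2 of 23). A match describes the letters in this window and not a bound site. Many lysosomal genes are known to carry the motif, so a higher share was likely beforehand and says nothing about these arrays. The promoters of the 4 genes with the core that rose at day 6 among lysosomal genes are shown 5′ to 3′ on the gene's strand, with CACGTG in capitals. They lie at chr13:113296989-113297288, plus strand, for the membrane glycoprotein LAMP1, at chr19:7522374-7522673, plus strand, for the cation channel MCOLN1, at chr16:67481108-67481407, minus strand, for a proton pump subunit, and at chr20:45891085-45891384, plus strand, for cathepsin A.
LAMP1: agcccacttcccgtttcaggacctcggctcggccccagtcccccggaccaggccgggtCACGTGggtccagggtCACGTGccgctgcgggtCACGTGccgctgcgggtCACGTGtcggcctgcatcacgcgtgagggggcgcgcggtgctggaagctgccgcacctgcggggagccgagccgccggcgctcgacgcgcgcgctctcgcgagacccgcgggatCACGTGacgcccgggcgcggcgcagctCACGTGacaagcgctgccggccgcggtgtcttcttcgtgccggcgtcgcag
MCOLN1: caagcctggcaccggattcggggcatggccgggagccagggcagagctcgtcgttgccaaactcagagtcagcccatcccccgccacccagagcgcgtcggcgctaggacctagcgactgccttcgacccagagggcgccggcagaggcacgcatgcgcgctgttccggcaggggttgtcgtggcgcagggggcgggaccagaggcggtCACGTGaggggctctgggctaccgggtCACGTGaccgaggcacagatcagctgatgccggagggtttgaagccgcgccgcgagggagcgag
ATP6V0D1: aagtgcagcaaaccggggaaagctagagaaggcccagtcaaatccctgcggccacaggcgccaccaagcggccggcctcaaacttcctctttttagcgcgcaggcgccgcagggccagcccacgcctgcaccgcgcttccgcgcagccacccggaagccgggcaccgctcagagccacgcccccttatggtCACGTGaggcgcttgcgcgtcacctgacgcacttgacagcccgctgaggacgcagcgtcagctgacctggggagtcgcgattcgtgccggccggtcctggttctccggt
CTSA: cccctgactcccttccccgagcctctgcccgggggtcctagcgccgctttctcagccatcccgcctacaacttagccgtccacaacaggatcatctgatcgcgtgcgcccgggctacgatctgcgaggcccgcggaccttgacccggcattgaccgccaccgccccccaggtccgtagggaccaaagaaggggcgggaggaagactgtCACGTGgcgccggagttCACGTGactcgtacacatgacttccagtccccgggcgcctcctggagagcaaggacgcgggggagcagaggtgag
LAMP1 held 6 copies of the core, MCOLN1 and CTSA 2 each and ATP6V0D1 1.

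Each array detected 10348 to 13089 of 47304 probes, and its mean background-subtracted intensity was 345 to 637 units. The lowest correlation between arrays of a group across features was 0.965, between day 6 replicates 1 and 2. Levels are normalized log2 intensities, and a level says nothing about one gene against another, since probes differ. Changes are differences of group means on the log2 scale ± SE, with n = 4 arrays on each side. A change passed when limma's p-value, adjusted by the Benjamini-Hochberg method over all 12149 features, was under 0.05, and "rose", "fell" and "call" refer to that. The percentage of all features that passed is given as background for each comparison. No test of the gene list itself was made, and several comparisons share the day 6 arrays. The map of changes shows all tested genes in 7 of the comparisons.

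**Figure D1:**
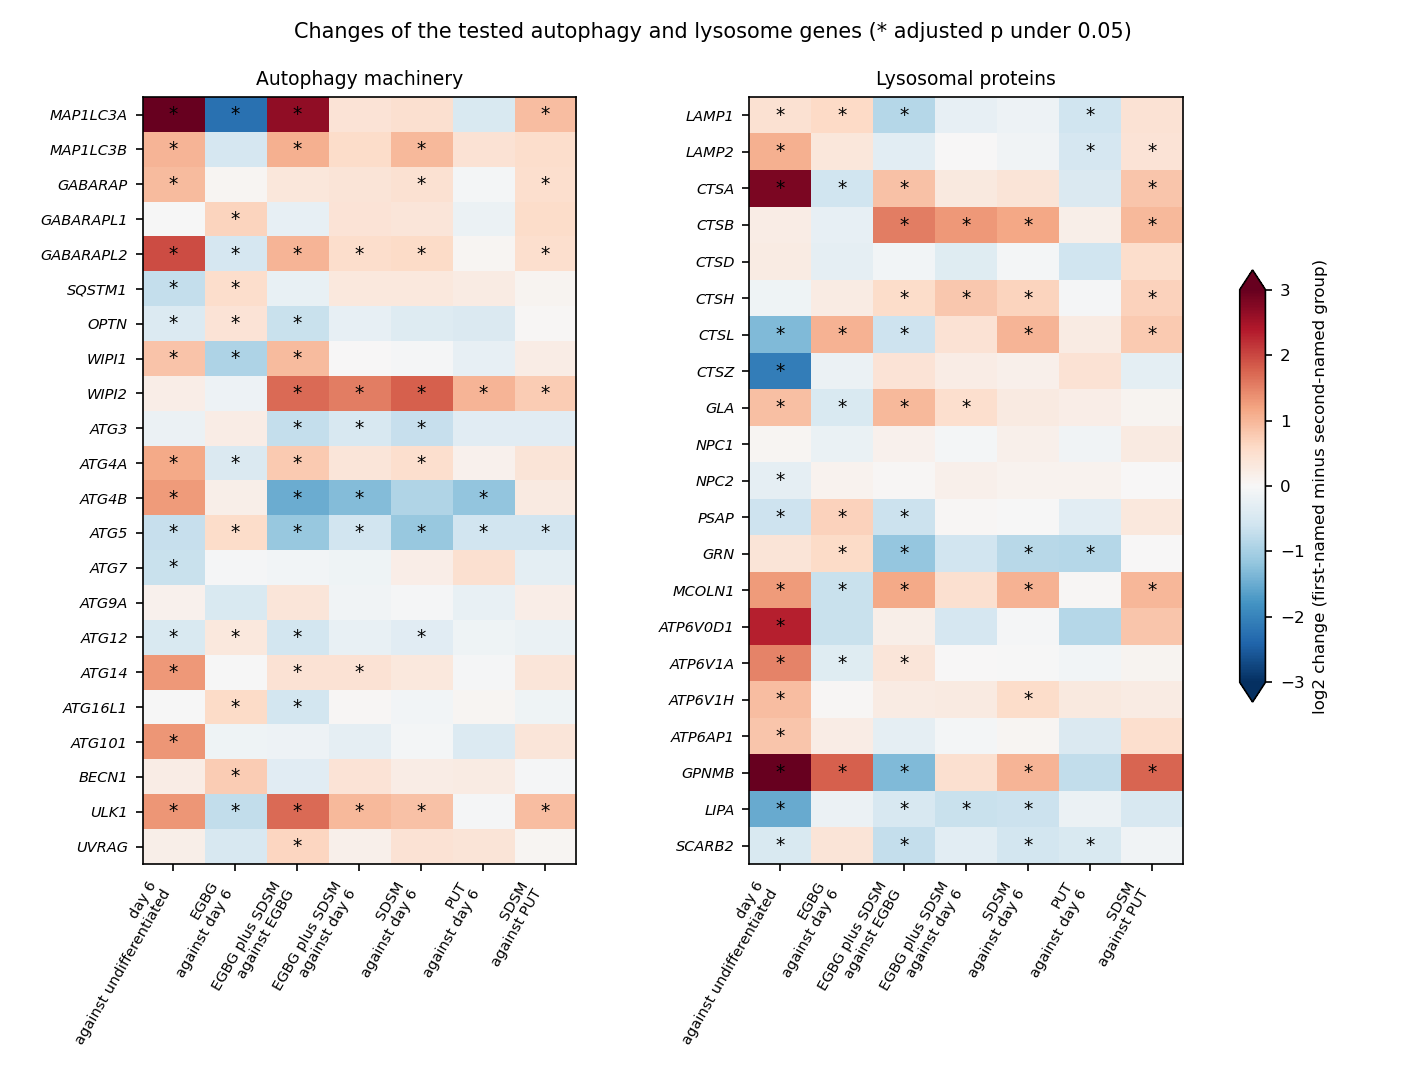
Log2 change of each tested autophagy gene (left) and lysosomal gene (right) in 7 comparisons, red where the first-named group was higher and blue where it was lower, with the colour scale ending at 3 in either direction and an asterisk where adjusted p was under 0.05. MAP1LC3A was red at day 6, blue with EGBG and red again with EGBG plus SDSM, and WIPI2 and CTSB were red in the comparisons of SDSM groups with day 6.

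Which of these genes change when keratinocytes differentiate was read from day 6 against undifferentiated cells. At day 6, 4 of 5 ATG8 family genes, both tested genes of the ULK1 kinase complex and all 4 listed genes of the proton pump were higher, together with the membrane proteins GPNMB and MCOLN1 and cathepsin A. Both tested cargo receptors, the acid lipase LIPA, the proteases CTSL and CTSZ and the conjugation genes ATG5, ATG7 and ATG12 were lower. In all, 20 of the 43 tested genes rose and 11 fell, which is 72.1% with a change, against 57.6% of all features. Of the tested genes 46.5% rose and 25.6% fell, against 23.8% and 33.8% of all features. By class, 10 of 22 autophagy genes rose and 5 fell, and 10 of 21 lysosomal genes rose and 6 fell. The median log2 change was 0.26 over the 43 genes and -0.10 over all features. In RNA from whole cultures, a change in the number of cells of a type cannot be told apart from a change in RNA per cell.

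MAP1LC3A and GABARAPL2, of the ATG8 family, had the largest changes among the autophagy genes. MAP1LC3A, an LC3 protein of the autophagosome membrane, had 10.98, 11.15, 10.74 and 11.12 on the day 6 arrays, against 6.99, 7.40, 7.06 and 6.71 on the undifferentiated arrays, a change of 3.96 ± 0.20 (adjusted p = 1.5e-14). GABARAPL2, of the GABARAP branch, had 12.50, 12.73, 12.45 and 12.77 on the day 6 arrays, against 10.35, 10.65, 10.88 and 10.76 on the undifferentiated arrays, a change of 1.95 ± 0.14 (adjusted p = 9.58e-12). MAP1LC3B, the LC3 form commonly used to follow autophagosomes, had 10.52, 10.36, 10.03 and 10.65 on the day 6 arrays, against 9.06, 9.44, 9.38 and 9.61 on the undifferentiated arrays, a change of 1.02 ± 0.23 (adjusted p = 0.000479). For each of these 3 genes every day 6 array lay above every undifferentiated array. GABARAP rose by 0.96 ± 0.16 as well, and GABARAPL1 was at -0.02 ± 0.21 (adjusted p = 0.95). The cargo receptor SQSTM1, also called p62, went the other way, with 12.75, 13.05, 13.24 and 13.28 on the day 6 arrays, against 13.92, 13.70, 13.72 and 13.84 on the undifferentiated arrays, a change of -0.72 ± 0.14 (adjusted p = 0.000147) and no overlap between the groups. OPTN, a cargo receptor for mitochondria and bacteria, fell by 0.40 on the log2 scale, with overlapping groups.

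**Figure D2:**
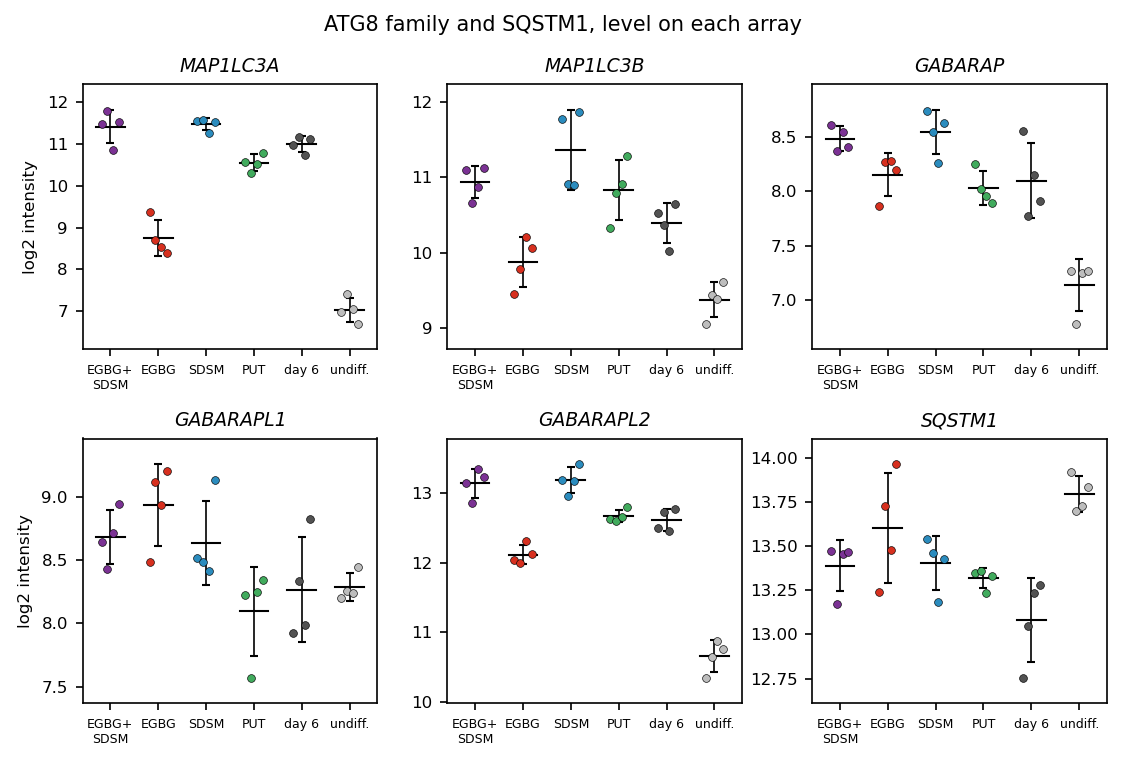
Normalized log2 intensity of the 5 ATG8 family genes and of SQSTM1, with a point for each array, a line at the mean of the 4 arrays of a group and a bar for the SD. MAP1LC3A lies near 7 in undifferentiated cells, near 11 at day 6 and below 10 on all EGBG arrays, and SQSTM1 lies between 12.75 and 13.96 on all arrays.

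Upstream, the kinase ULK1 had 11.10, 11.87, 10.50 and 11.94 on the day 6 arrays, against 10.29, 10.09, 10.06 and 9.69 on the undifferentiated arrays, a change of 1.32 ± 0.25 (adjusted p = 5.9e-05). Its complex partner ATG101 had 9.58, 8.93, 9.61 and 9.20 on the day 6 arrays, against 7.83, 8.05, 8.09 and 8.08 on the undifferentiated arrays, a change of 1.32 ± 0.23 (adjusted p = 2.28e-05). ATG14, which directs the phosphatidylinositol 3-kinase complex to the forming autophagosome, had 9.61, 9.85, 10.23 and 9.95 on the day 6 arrays, against 8.53, 8.59, 8.68 and 8.65 on the undifferentiated arrays, a change of 1.30 ± 0.13 (adjusted p = 6.81e-09). These 3 genes were higher on all day 6 arrays than on any undifferentiated array, while BECN1 and UVRAG of the 3-kinase complexes were at 0.22 ± 0.19 and 0.18 ± 0.20 and did not pass. The lipid reader WIPI1 rose by 0.85 ± 0.13, against 0.20 ± 0.21 for WIPI2 and 0.12 ± 0.20 for the membrane protein ATG9A, neither of which passed. ATG4B, a protease that trims ATG8 proteins, was detected on 2 day 6 arrays and 0 undifferentiated arrays. Its levels were 7.68, 6.47, 7.49 and 6.61 on the day 6 arrays, against 5.72, 5.62, 5.86 and 5.98 on the undifferentiated arrays. It rose (adjusted p = 0.00285, means 7.06 and 5.79), with a bound of 1.51-fold set against the lowest signal of detected probes. That bound is approximate, since only 2 day 6 arrays detected ATG4B. The higher levels were on day 6 replicates 1 and 3, where ATG101, ATP6V0D1 and CTSD were also highest. ATG4A, a relative of ATG4B, rose by 1.14 ± 0.17. ATG5 and ATG12, which are joined to each other, and ATG7, the enzyme that activates ATG12, fell. Their changes were -0.70 ± 0.18, -0.45 ± 0.12 and -0.66 ± 0.18. ATG3 (-0.18 ± 0.15) and ATG16L1 (-0.01 ± 0.13) did not pass.

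**Figure D3:**
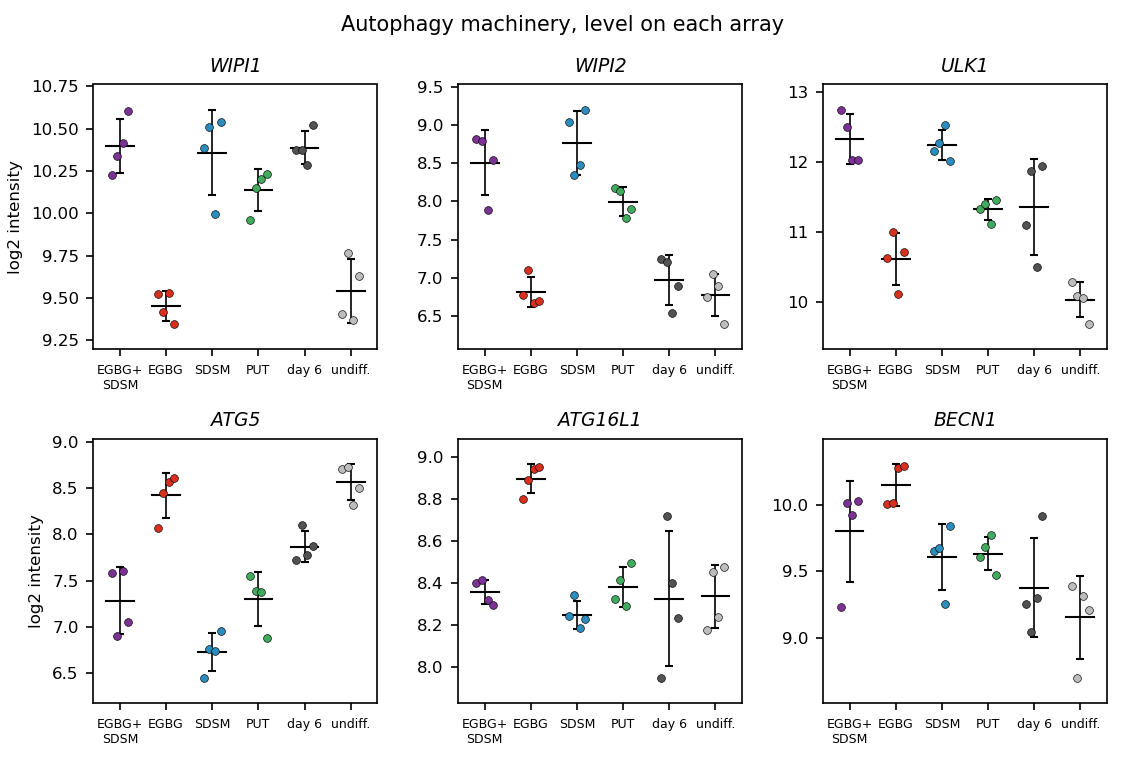
Normalized log2 intensity of WIPI1, WIPI2, ULK1, ATG5, ATG16L1 and BECN1, with a point for each array, the mean as a line and the SD as a bar. WIPI1 is low in EGBG and undifferentiated cells, and WIPI2 lies above the day 6 arrays in all 3 groups that received a polyamine.

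Among lysosomal genes, GPNMB, a membrane glycoprotein of melanosomes and lysosomes, had 10.38, 9.70, 11.15 and 10.25 on the day 6 arrays, against 5.29, 5.96, 5.69 and 6.37 on the undifferentiated arrays, a change of 4.54 ± 0.31 (adjusted p = 4.96e-12). It was detected on 1 undifferentiated array and was not well above background on the other 3, so the size of this change depends on levels near background. GPNMB is also a gene of melanocytes and macrophages. Of the melanocyte markers MLANA, TYR, TYRP1, SOX10 and KIT, 0 of 5 were detected on any array, and only PMEL was detected at day 6, where it rose at least 2.97-fold, with 0 undifferentiated arrays detecting it. The summed intensity of the 7 melanocyte markers with a probe was 515 to 559 at day 6, against 322 to 338 in undifferentiated cells. For the 8 macrophage and other immune markers, of which CD14, CD68 and AIF1 were detected and PTPRC, CSF1R, CD163, LYZ and CD3E were not in either group, it was 3684 to 5029 at day 6, against 4005 to 6226 in undifferentiated cells. CD14 fell with a change of -0.87 ± 0.31. Of 6 fibroblast markers COL1A1 was the one detected, and it rose by 2.17 ± 0.27, the summed intensity being 549 to 1190 at day 6, against 343 to 379 in undifferentiated cells. The part of such cells in the GPNMB change was not tested. Of the 7 keratinocyte markers with a probe, 7 were detected at day 6 and 6 in undifferentiated cells, involucrin (IVL) being the exception. KRT1, KRT10, IVL, SFN and DSP rose, KRT14 fell and KRT5 did not pass.

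CTSA, a carboxypeptidase that protects other lysosomal enzymes, had 10.31, 9.13, 8.97 and 9.36 on the day 6 arrays, against 6.41, 6.50, 6.83 and 6.71 on the undifferentiated arrays, a change of 2.83 ± 0.22 (adjusted p = 6.11e-11), with detection on 2 undifferentiated arrays. ATP6V0D1, in the membrane sector of the proton pump, had 10.12, 8.09, 9.22 and 8.55 on the day 6 arrays, against 6.35, 6.71, 7.03 and 6.55 on the undifferentiated arrays, a change of 2.34 ± 0.37 (adjusted p = 6.75e-06), with detection on 3 undifferentiated arrays. ATP6V1A, the catalytic subunit, had 12.69, 12.88, 12.72 and 12.73 on the day 6 arrays, against 11.28, 11.42, 11.32 and 11.07 on the undifferentiated arrays, a change of 1.49 ± 0.13 (adjusted p = 3.7e-10). Day 6 arrays were above all undifferentiated arrays for the 3 genes. The other pump genes ATP6V1H and ATP6AP1 rose by 0.92 ± 0.14 and 0.83 ± 0.23, ATP6AP1 with overlapping groups. MCOLN1, a channel that releases calcium from lysosomes, was detected on 3 day 6 arrays and 0 undifferentiated arrays. It rose (adjusted p = 1.05e-06, means 6.86 and 5.58), with an approximate bound of 1.31-fold. LAMP1 and LAMP2, the main glycoproteins of the lysosomal membrane, rose by 0.46 ± 0.16 and 1.07 ± 0.14. The levels of LAMP1 were 12.31, 12.54, 11.76 and 12.27 on the day 6 arrays, against 11.50, 11.90, 11.80 and 11.85 on the undifferentiated arrays, with day 6 replicate 3 inside the undifferentiated range. GLA, which removes galactose from glycolipids, rose by 0.90 ± 0.17.

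Some digestive enzymes were lower. CTSZ, a carboxypeptidase of the cathepsin family, had 6.63, 5.92, 5.65 and 5.89 on the day 6 arrays, against 8.26, 7.95, 7.72 and 8.47 on the undifferentiated arrays, a change of -2.08 ± 0.22 (adjusted p = 1.78e-08). It was detected on 1 day 6 array and was not well above background on the other 3, so the size of the fall depends on levels near background. CTSZ met the detection rule only with the 4 undifferentiated arrays, the other detections being on 1 day 6 array and 2 PUT arrays. The filter therefore favoured a fall, and this p-value is descriptive. LIPA, which splits cholesteryl esters and triglycerides, had 9.01, 9.52, 9.70 and 8.91 on the day 6 arrays, against 10.70, 10.85, 10.96 and 10.69 on the undifferentiated arrays, a change of -1.52 ± 0.19 (adjusted p = 1.69e-07). The protease CTSL fell with a change of -1.31 ± 0.19, and all 3 genes were lower on every day 6 array than on any undifferentiated array. PSAP, the precursor of the saposins, SCARB2, the carrier of glucocerebrosidase, and NPC2, which passes cholesterol to NPC1, fell with changes of -0.62 ± 0.16, -0.47 ± 0.15 and -0.27 ± 0.11. CTSB (0.22 ± 0.19), CTSD (0.26 ± 0.34), CTSH (-0.14 ± 0.20), NPC1 (0.05 ± 0.17) and the progranulin gene GRN (0.38 ± 0.22) did not pass.

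**Figure D4:**
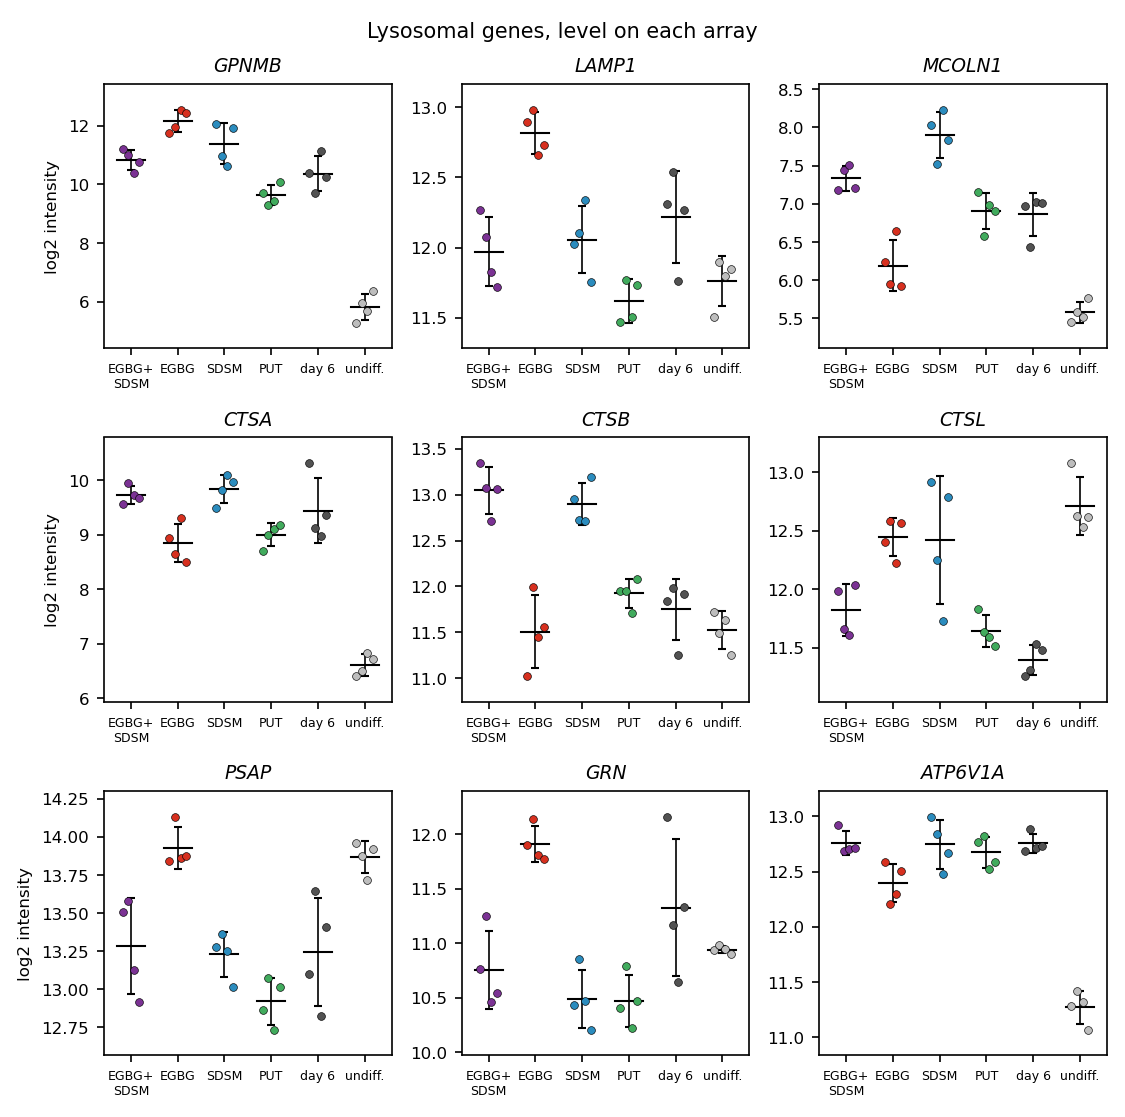
Normalized log2 intensity of 9 lysosomal genes, with a point for each array, the mean as a line and the SD as a bar. GPNMB, MCOLN1, CTSA and ATP6V1A have their lowest mean in undifferentiated cells, CTSL and PSAP are lower at day 6 than in undifferentiated and EGBG cells, and CTSB is high in the 2 groups that received SDSM.

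Of 7 tested genes whose promoter held CACGTG, 5 rose (LAMP1, MCOLN1, ATP6V0D1, CTSA and ATG14), 0 fell and 2 did not pass. Of 29 tested genes with a promoter without it 11 rose, 10 fell and 8 did not pass. All features were not split by this motif, so no background share stands beside such counts here or below. The part of the motif in the changes was not tested. Of all features 23.8% rose and 33.8% fell in this comparison. Among 50 other autophagy genes 18 of the 35 tested rose and 7 fell, and among 80 other lysosomal genes 31 of 59 rose and 14 fell. The largest of these changes were in ATP6V1C2, an isoform of a proton pump subunit (at least 7.53-fold higher), GM2A, the activator of ganglioside breakdown (2.45 ± 0.30), the mitophagy receptor BNIP3L (2.39 ± 0.19) and NRBF2, a partner of the 3-kinase complex (2.22 ± 0.14).

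Of the 31 calls, 27 held under every setting other than the table deposited as non-normalized, namely those of MAP1LC3A, MAP1LC3B, GABARAP, GABARAPL2, SQSTM1, WIPI1, ATG4A, ATG4B, ATG5, ATG7, ATG14, ATG101, ULK1, LAMP2, CTSA, CTSL, CTSZ, GLA, PSAP, MCOLN1, ATP6V0D1, ATP6V1A, ATP6V1H, ATP6AP1, GPNMB, LIPA and SCARB2. Further kept probes did not pass for ATG12 (-0.19) and LAMP2 (0.10, 1 of 5 further probes), called from the brightest probe, and further kept probes passed for CTSB (0.95) and GRN (1.24), whose brightest probe did not. The 4 other further LAMP2 probes rose by 0.43 to 1.46. The deposited table ended the calls of OPTN, ATG5, ATG7, ATG12, PSAP, SCARB2, MCOLN1 and GPNMB, MCOLN1 and GPNMB standing at its floor of 40 on every array, and the mean of all detected probes ended that of ATG12. OPTN did not pass when day 6 replicate 1 or 3 or undifferentiated replicate 2 or 4 was left out, its adjusted p then reaching 0.146 and spanning 0.005 to 0.275 over all settings. LAMP1 did not pass when day 6 replicate 2 or undifferentiated replicate 1 was left out, its adjusted p then reaching 0.0821 and spanning 0.00192 to 0.0821 over all settings. NPC2 did not pass when day 6 replicate 1 or 2 or undifferentiated replicate 1, 3 or 4 was left out, its adjusted p then reaching 0.143 and spanning 0.0188 to 0.368 over all settings.

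How these genes differ in cells given the AMD1 inhibitor EGBG was read from EGBG against day 6. With EGBG, MAP1LC3A fell most, and WIPI1, ULK1, GABARAPL2, MCOLN1, CTSA, GLA, ATG4A and ATP6V1A were lower too. GPNMB, CTSL, PSAP, LAMP1 and GRN of the lysosome were higher, as were both tested cargo receptors, BECN1, GABARAPL1 and the ATG5, ATG12 and ATG16L1 group that directs conjugation. In all, 12 of the 43 tested genes rose and 9 fell, 48.8% with a change against 39% of all features, of which 21.3% rose and 17.7% fell. By class, 7 of 22 autophagy genes rose and 5 fell, and 5 of 21 lysosomal genes rose and 4 fell. The median was -0.02 over the 43 genes and 0.07 over all features. Of the calls over all features 54.7% were rises, against 36.8% in the table deposited as non-normalized.

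MAP1LC3A had 9.37, 8.69, 8.54 and 8.40 on the EGBG arrays, against 10.98, 11.15, 10.74 and 11.12 on the day 6 arrays, a change of -2.24 ± 0.20 (adjusted p = 2.97e-09). GABARAPL1 had 8.48, 9.12, 8.93 and 9.20 on the EGBG arrays, against 7.92, 8.33, 7.99 and 8.82 on the day 6 arrays, a change of 0.67 ± 0.21 (adjusted p = 0.0123). The EGBG and day 6 arrays did not overlap for MAP1LC3A and overlapped for GABARAPL1. GABARAPL2 changed by -0.49 ± 0.14 and GABARAP was at 0.06 ± 0.16. MAP1LC3B had 9.46, 9.78, 10.20 and 10.05 on the EGBG arrays, against 10.52, 10.36, 10.03 and 10.65 on the day 6 arrays, a difference of -0.51 ± 0.23 (adjusted p = 0.0781) with overlapping groups. The cargo receptor SQSTM1 had 13.24, 13.72, 13.48 and 13.96 on the EGBG arrays, against 12.75, 13.05, 13.24 and 13.28 on the day 6 arrays, a change of 0.52 ± 0.14 (adjusted p = 0.00539) with overlapping groups, and OPTN rose by 0.40 ± 0.16. The replicate numbers pair these 2 groups, and with the number as a block MAP1LC3B (adjusted p = 0.0419) and ATG9A (0.0465) also fell, and LAMP2 (0.0161) and SCARB2 (0.0199) also rose.

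WIPI1, which binds the lipid made by the 3-kinase complex, had 9.52, 9.42, 9.53 and 9.35 on the EGBG arrays, against 10.37, 10.37, 10.29 and 10.52 on the day 6 arrays, a change of -0.93 ± 0.13 (adjusted p = 3.65e-06). ULK1 had 10.63, 11.002, 10.12 and 10.72 on the EGBG arrays, against 11.10, 11.87, 10.50 and 11.94 on the day 6 arrays, a change of -0.74 ± 0.25 (adjusted p = 0.0198). The EGBG arrays were below all day 6 arrays for WIPI1 and overlapped them for ULK1, which ranged widely at day 6. BECN1, a core subunit of the 3-kinase complex, had 10.01, 10.01, 10.28 and 10.29 on the EGBG arrays, against 9.25, 9.05, 9.30 and 9.92 on the day 6 arrays, a change of 0.77 ± 0.19 (adjusted p = 0.0027). ATG16L1, which places the conjugation enzymes on the membrane, had 8.80, 8.89, 8.94 and 8.95 on the EGBG arrays, against 7.95, 8.72, 8.40 and 8.23 on the day 6 arrays, a change of 0.57 ± 0.13 (adjusted p = 0.00101). Both were higher on every EGBG array than on any day 6 array. Its partners ATG5 and ATG12 rose by 0.56 ± 0.18 and 0.31 ± 0.12, and ATG101, ATG14, WIPI2, ATG3, ATG4B, ATG7 and UVRAG did not pass.

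GPNMB had 11.74, 11.96, 12.53 and 12.45 on the EGBG arrays, against 10.38, 9.70, 11.15 and 10.25 on the day 6 arrays, a change of 1.80 ± 0.31 (adjusted p = 5.45e-05). CTSL, a cysteine protease, had 12.41, 12.58, 12.23 and 12.57 on the EGBG arrays, against 11.26, 11.32, 11.53 and 11.48 on the day 6 arrays, a change of 1.05 ± 0.19 (adjusted p = 0.000103). PSAP had 13.84, 14.13, 13.86 and 13.87 on the EGBG arrays, against 13.10, 13.65, 12.83 and 13.41 on the day 6 arrays, a change of 0.68 ± 0.16 (adjusted p = 0.00162). For GPNMB, CTSL and PSAP every EGBG array lay above every day 6 array, and against undifferentiated cells the same day 6 arrays had changes of 4.54 ± 0.31 for GPNMB, -1.31 ± 0.19 for CTSL and -0.62 ± 0.16 for PSAP. The 7 melanocyte markers with a probe summed to 387 to 524 intensity units with EGBG, against 515 to 559 at day 6. The immune markers summed to 3622 to 4787 with EGBG, against 3684 to 5029 at day 6, and CD14 and CD68 were the ones detected with EGBG. PMEL (-0.50 ± 0.20), COL1A1 (-0.63 ± 0.27), CD14 (0.62 ± 0.31) and CD68 (0.00 ± 0.17) did not pass, and the part of other cells in the GPNMB change was not tested.

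LAMP1 had 12.90, 12.98, 12.66 and 12.73 on the EGBG arrays, against 12.31, 12.54, 11.76 and 12.27 on the day 6 arrays, a change of 0.60 ± 0.16 (adjusted p = 0.0048) without overlap. GRN rose by 0.58 ± 0.22 with overlapping groups. MCOLN1, detected on 1 EGBG array and 3 day 6 arrays, had 6.24, 5.95, 6.64 and 5.92 on the EGBG arrays, against 6.98, 6.44, 7.02 and 7.01 on the day 6 arrays, a change of -0.67 ± 0.18 (adjusted p = 0.00396). CTSA had 8.94, 8.65, 9.30 and 8.50 on the EGBG arrays, against 10.31, 9.13, 8.97 and 9.36 on the day 6 arrays, a change of -0.59 ± 0.22 (adjusted p = 0.0368). The groups overlapped for MCOLN1 and CTSA. GLA and ATP6V1A fell with changes of -0.45 ± 0.17 and -0.36 ± 0.13, and the other 3 pump genes, CTSB, CTSD, CTSH, CTSZ, NPC1, NPC2, LIPA, LAMP2 and SCARB2 did not pass.

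Of all features 21.3% rose and 17.7% fell with EGBG. Among the other autophagy genes 3 of the 35 tested rose and 10 fell, and among the other lysosomal genes 15 of 59 rose and 11 fell. The largest changes were in ATP6V1C2 (-2.77 ± 0.17, detected on 2 of 4 EGBG arrays), RRAGD, a Rag GTPase that recruits the kinase complex mTORC1 to lysosomes (2.13 ± 0.27, detected on 3 of 4 day 6 arrays), BNIP3L (-1.77 ± 0.19) and the protease CTSF (1.73 ± 0.15, detected on 1 of 4 day 6 arrays). Of 7 keratinocyte markers IVL, of the cornified envelope, fell with a change of -3.16 ± 0.16, and the other 6 did not pass, with KRT1 at -0.54 ± 0.33 and KRT10 at 0.17 ± 0.22. The median over the 7 was -0.19, and their part in these changes was not tested. Of the 7 genes with CACGTG, 1 rose and 2 fell, and of the 29 without it 10 rose and 5 fell.

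Of the 21 calls, 10 held under every setting other than the table deposited as non-normalized, namely those of MAP1LC3A, GABARAPL1, WIPI1, ATG16L1, BECN1, LAMP1, CTSL, PSAP, MCOLN1 and GPNMB. By probe, further kept probes did not pass for GABARAPL2 (-0.10), ATG12 (0.03) and GRN (0.55), called from the brightest probe, and further kept probes passed for ATG9A (-0.50) and LAMP2 (1.16 and 0.52, 2 of 5 further probes), whose brightest probe did not. The table deposited as non-normalized ended the calls of GABARAPL1, OPTN, ATG4A, ATG5, ATG12, LAMP1, GRN, MCOLN1 and GPNMB, scaling to the 75th percentile and the mean of detected probes ended that of GABARAPL2, and a fit of the compared groups alone ended that of SQSTM1. OPTN did not pass when EGBG replicate 2 or 4 or day 6 replicate 1, 3 or 4 was left out, its adjusted p then reaching 0.159 and spanning 0.00775 to 0.159 over all settings. ATG4A did not pass when EGBG replicate 1, 2 or 4 or day 6 replicate 2, 3 or 4 was left out, its adjusted p then reaching 0.144 and spanning 0.00443 to 0.144 over all settings. ATG5 did not pass when EGBG replicate 4 was left out, its adjusted p then reaching 0.0513 and spanning 0.00551 to 0.365 over all settings. ATG12 did not pass when EGBG replicate 2, 3 or 4 or day 6 replicate 1 or 2 was left out, its adjusted p then reaching 0.16 and spanning 0.031 to 0.935 over all settings. ULK1 did not pass when EGBG replicate 3 or day 6 replicate 2 or 4 was left out, its adjusted p then reaching 0.0958 and spanning 0.000745 to 0.102 over all settings. CTSA did not pass when EGBG replicate 2 or 4 or day 6 replicate 1 or 4 was left out, its adjusted p then reaching 0.207 and spanning 0.011 to 0.207 over all settings. GLA did not pass when EGBG replicate 1, 2 or 3 or day 6 replicate 2, 3 or 4 was left out, its adjusted p then reaching 0.132 and spanning 0.00478 to 0.132 over all settings. GRN did not pass when EGBG replicate 1, 2, 3 or 4 or day 6 replicate 2, 3 or 4 was left out, its adjusted p then reaching 0.197 and spanning 0.000985 to 0.197 over all settings. ATP6V1A did not pass when EGBG replicate 2 or 3 or day 6 replicate 2 was left out, its adjusted p then reaching 0.0998 and spanning 3.78e-05 to 0.18 over all settings.

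Whether added spermidine and spermine move the genes back was read from EGBG plus SDSM against EGBG. With SDSM added, the autophagy genes MAP1LC3A, MAP1LC3B, GABARAPL2, ULK1, WIPI1, WIPI2, ATG4A, ATG14 and UVRAG and the lysosomal genes MCOLN1, CTSA, CTSB, CTSH, GLA and ATP6V1A rose. The lysosomal genes GPNMB, GRN, LAMP1, SCARB2, PSAP, CTSL and LIPA, the cargo receptor OPTN, the protease ATG4B and the conjugation genes ATG3, ATG5, ATG12 and ATG16L1 fell. The EGBG arrays also enter EGBG against day 6, so no count is made across both comparisons. In all, 15 of the 43 tested genes rose and 13 fell, 65.1% with a change against 51.2% of all features, of which 22.2% rose and 29% fell. By class, 9 of 22 autophagy genes rose and 6 fell, and 6 of 21 lysosomal genes rose and 7 fell. The median was 0.04 over the 43 genes and -0.07 over all features, and rises made up 43.3% of the calls over all features, against 53.5% in the table deposited as non-normalized.

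MAP1LC3A had 11.46, 11.78, 10.84 and 11.53 with EGBG plus SDSM, against 9.37, 8.69, 8.54 and 8.40 with EGBG, a change of 2.65 ± 0.20 (adjusted p = 7.16e-11). MAP1LC3B had 11.09, 10.66, 10.86 and 11.13 with EGBG plus SDSM, against 9.46, 9.78, 10.20 and 10.05 with EGBG, a change of 1.06 ± 0.23 (adjusted p = 0.000409). ULK1 had 12.74, 12.50, 12.03 and 12.03 with EGBG plus SDSM, against 10.63, 11.002, 10.12 and 10.72 with EGBG, a change of 1.71 ± 0.25 (adjusted p = 2.83e-06). All arrays with SDSM were above all EGBG arrays for the 3 genes. WIPI2, which brings ATG16L1 to the membrane, had 8.81, 8.79, 7.89 and 8.54 with EGBG plus SDSM, against 6.78, 7.10, 6.67 and 6.69 with EGBG, a change of 1.70 ± 0.21 (adjusted p = 4.04e-07) without overlap. WIPI1 rose by 0.94 ± 0.13 and GABARAPL2 by 1.03 ± 0.14, and GABARAP (0.33 ± 0.16), GABARAPL1 (-0.25 ± 0.21) and BECN1 (-0.35 ± 0.19) did not pass. SQSTM1 had 13.47, 13.17, 13.45 and 13.46 with EGBG plus SDSM, against 13.24, 13.72, 13.48 and 13.96 with EGBG, a difference of -0.21 ± 0.14 (adjusted p = 0.229) with overlapping groups, and OPTN fell with a change of -0.66 ± 0.16.

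ATG5 had 7.58, 6.90, 7.60 and 7.05 with EGBG plus SDSM, against 8.07, 8.45, 8.56 and 8.61 with EGBG, a change of -1.14 ± 0.18 (adjusted p = 8.18e-06) with no overlap. ATG4B was detected on 4 EGBG arrays and 0 EGBG plus SDSM arrays, and had 5.45, 6.25, 5.74 and 5.57 with EGBG plus SDSM, against 7.82, 6.75, 7.51 and 6.85 with EGBG. It was lower with EGBG plus SDSM at least 1.37-fold (adjusted p = 0.000929, means 5.75 and 7.23). ATG4B met the detection rule only with the EGBG arrays, the other detections being on 2 day 6 arrays and 1 SDSM array. The filter therefore favoured a fall from EGBG, and this p-value is descriptive. The other falls among conjugation genes were -0.70 ± 0.15 for ATG3, -0.54 ± 0.12 for ATG12 and -0.54 ± 0.13 for ATG16L1, while ATG4A rose by 0.79 ± 0.17 and ATG7 was at -0.09 ± 0.18. UVRAG, of the complex that acts on later membranes, rose by 0.64 ± 0.20, with detection on 2 EGBG arrays, and ATG14 by 0.44 ± 0.13.

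CTSB, a cysteine protease, had 13.34, 13.07, 12.71 and 13.06 with EGBG plus SDSM, against 11.02, 11.997, 11.45 and 11.56 with EGBG, a change of 1.54 ± 0.19 (adjusted p = 2.85e-07). GPNMB had 11.20, 11.001, 10.40 and 10.78 with EGBG plus SDSM, against 11.74, 11.96, 12.53 and 12.45 with EGBG, a change of -1.32 ± 0.31 (adjusted p = 0.000979). GRN, whose product is cut into granulins in the lysosome, had 10.76, 11.25, 10.46 and 10.55 with EGBG plus SDSM, against 11.90, 12.14, 11.81 and 11.77 with EGBG, a change of -1.15 ± 0.22 (adjusted p = 0.000132). None of the 3 genes had overlapping groups, CTSB being higher and GPNMB and GRN lower with SDSM. The melanocyte markers summed to 624 to 749 intensity units with EGBG plus SDSM, where PMEL and MITF were detected, against 387 to 524 with EGBG, where PMEL was, and PMEL rose by 1.10 ± 0.20. The immune markers summed to 3318 to 4600 with EGBG plus SDSM, against 3622 to 4787 with EGBG. Among them CD14 fell with a change of -1.24 ± 0.31, detected on 1 EGBG plus SDSM array, and CD68 was at -0.05 ± 0.17. CSF1R, detected on 2 EGBG plus SDSM arrays and 0 EGBG arrays, rose with an approximate bound of 1.24-fold. COL1A1 of the fibroblast markers rose by 0.75 ± 0.27, and the part of other cells in these changes was not tested. MCOLN1, detected on 1 EGBG array, had 7.19, 7.44, 7.50 and 7.21 with EGBG plus SDSM, against 6.24, 5.95, 6.64 and 5.92 with EGBG, a change of 1.14 ± 0.18 (adjusted p = 8.11e-06). GLA had 10.31, 10.77, 10.88 and 10.87 with EGBG plus SDSM, against 9.71, 9.66, 9.60 and 10.01 with EGBG, a change of 0.96 ± 0.17 (adjusted p = 3.11e-05). CTSA had 9.56, 9.95, 9.73 and 9.67 with EGBG plus SDSM, against 8.94, 8.65, 9.30 and 8.50 with EGBG, a change of 0.88 ± 0.22 (adjusted p = 0.00186). These 3 genes were higher on all EGBG plus SDSM arrays than on any EGBG array. LAMP1 had 12.27, 12.07, 11.82 and 11.72 with EGBG plus SDSM, against 12.90, 12.98, 12.66 and 12.73 with EGBG, a change of -0.85 ± 0.16 (adjusted p = 0.000115) without overlap. SCARB2 (-0.71 ± 0.15), PSAP (-0.64 ± 0.16), CTSL (-0.62 ± 0.19) and LIPA (-0.48 ± 0.19) fell, CTSH rose by 0.56 ± 0.20, and of the pump genes ATP6V1A alone passed (0.36 ± 0.13).

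Beside the 22.2% of all features that rose and the 29% that fell, the wider pathway was counted. Among other autophagy genes 12 of the 35 tested rose and 6 fell, and among other lysosomal genes 15 of 59 rose and 19 fell. The largest changes were in ATP6V1C2 (3.41 ± 0.17, detected on 2 of 4 EGBG arrays), CTNS, which exports cystine from lysosomes (2.50 ± 0.23), ATG2A, a lipid transfer protein of the growing membrane (2.44 ± 0.18), and BNIP3L (2.40 ± 0.19). Of 7 keratinocyte markers IVL rose by 3.87 ± 0.16, KRT5 (-1.49 ± 0.33), KRT14 (-0.55 ± 0.18) and KRT10 (-0.55 ± 0.22) fell and 3 did not pass, KRT1 being at 0.05 ± 0.33. The median over the 7 was -0.23, and their part in these changes was not tested. Of the 7 genes with CACGTG, 3 rose and 2 fell, and of the 29 without it 8 rose and 10 fell.

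Of the 28 calls, 24 held under every setting other than the table deposited as non-normalized, namely those of MAP1LC3A, MAP1LC3B, GABARAPL2, OPTN, WIPI1, WIPI2, ATG3, ATG4A, ATG4B, ATG5, ATG12, ATG16L1, ULK1, UVRAG, LAMP1, CTSA, CTSB, CTSL, GLA, PSAP, GRN, MCOLN1, GPNMB and SCARB2. Further kept probes did not pass for ATG3 (-0.24), called from the brightest probe, and further kept probes passed for LAMP2 (-0.38, -1.26 and -0.55, 3 of 5 further probes), whose brightest probe did not. The table deposited as non-normalized ended the calls of ATG16L1, LIPA, MCOLN1 and GPNMB, and scaling to the 75th percentile ended that of ATG14. CTSH did not pass when EGBG plus SDSM replicate 2 or 4 or EGBG replicate 1 or 4 was left out, its adjusted p then reaching 0.11 and spanning 0.00323 to 0.11 over all settings. ATP6V1A did not pass when EGBG plus SDSM replicate 1 or EGBG replicate 2 or 3 was left out, its adjusted p then reaching 0.0774 and spanning 1.22e-05 to 0.0819 over all settings. LIPA did not pass when EGBG plus SDSM replicate 1 or 4 or EGBG replicate 1 or 3 was left out, its adjusted p then reaching 0.204 and spanning 0.00999 to 0.93 over all settings.

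How far cells given both compounds stood from untreated day 6 cells was read from EGBG plus SDSM against day 6. WIPI2, ULK1, GABARAPL2 and ATG14 of the autophagy machinery and CTSB, CTSH and GLA of the lysosome were higher, and ATG3, ATG4B, ATG5 and LIPA were lower. In all, 7 of the 43 tested genes rose and 4 fell, 25.6% with a change against 16.4% of all features, of which 8.72% rose and 7.7% fell. By class, 4 of 22 autophagy genes rose and 3 fell, and 3 of 21 lysosomal genes rose and 1 fell, and the median was 0.15 over the 43 genes and 0.00 over all features. WIPI2 had 8.81, 8.79, 7.89 and 8.54 with EGBG plus SDSM, against 7.25, 7.20, 6.54 and 6.89 at day 6, a change of 1.54 ± 0.21 (adjusted p = 3.14e-05), with detection on 3 day 6 arrays. CTSB had 13.34, 13.07, 12.71 and 13.06 with EGBG plus SDSM, against 11.84, 11.98, 11.25 and 11.92 at day 6, a change of 1.30 ± 0.19 (adjusted p = 5.41e-05). CTSH, an aminopeptidase, had 10.56, 11.11, 10.09 and 10.79 with EGBG plus SDSM, against 9.78, 9.64, 9.92 and 9.98 at day 6, a change of 0.81 ± 0.20 (adjusted p = 0.00722). For WIPI2, CTSB and CTSH the arrays with both compounds lay above all day 6 arrays. ULK1 rose by 0.97 ± 0.25. ATG4B, detected on 0 arrays with both compounds and on 2 at day 6, was lower (adjusted p = 0.0108, means 5.75 and 7.06), with an approximate bound of 1.22-fold. LIPA (-0.66 ± 0.19), ATG5 (-0.58 ± 0.18) and ATG3 (-0.47 ± 0.15) fell.

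MAP1LC3A, WIPI1, LAMP1, GPNMB and SQSTM1 did not pass here, and intervals, not adjusted for the number of features, bound their differences. For MAP1LC3A the difference was 0.41 (95% interval -0.01 to 0.82), for WIPI1 0.01 (95% interval -0.26 to 0.28), for LAMP1 -0.25 (95% interval -0.59 to 0.09), for GPNMB 0.47 (95% interval -0.17 to 1.11) and for SQSTM1 0.31 (95% interval 0.01 to 0.61). In the wider lists, 7 of the 35 tested rose and 0 fell among other autophagy genes, and 10 of 59 rose and 7 fell among other lysosomal genes. This compares with 8.72% higher and 7.7% lower over all features. The largest changes in these lists were in the pump subunit ATP6V1C1 (1.41 ± 0.22, detected on 3 of 4 day 6 arrays), CTNS (1.38 ± 0.23), RRAGD (1.21 ± 0.27, detected on 3 of 4 day 6 arrays) and SNAP29, a SNARE protein of autophagosome fusion (0.97 ± 0.19).

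Of the 11 calls, 3 held under every setting other than the table deposited as non-normalized, namely those of WIPI2, CTSB and CTSH. By probe, further kept probes did not pass for ATG3 (0.0056), called from the brightest probe, and further kept probes passed for ATG12 (-0.60) and GRN (-1.14), whose brightest probe did not. A fit of the compared groups alone ended the calls of GABARAPL2 and ULK1, among others, and the table deposited as non-normalized those of CTSH, GLA and LIPA. ATG3 did not pass when EGBG plus SDSM replicate 1 or day 6 replicate 1 or 3 was left out, its adjusted p then reaching 0.122 and spanning 0.0091 to 0.264 over all settings. ATG4B did not pass when day 6 replicate 1 was left out, its adjusted p then reaching 0.0532 and spanning 0.00476 to 0.0532 over all settings. ATG5 did not pass when EGBG plus SDSM replicate 2 or 4 or day 6 replicate 2 was left out, its adjusted p then reaching 0.103 and spanning 0.00851 to 0.103 over all settings. ATG14 did not pass when EGBG plus SDSM replicate 1 or 3 or day 6 replicate 1 or 2 was left out, its adjusted p then reaching 0.118 and spanning 0.00875 to 0.158 over all settings. GLA did not pass when EGBG plus SDSM replicate 2, 3 or 4 or day 6 replicate 1, 2 or 3 was left out, its adjusted p then reaching 0.138 and spanning 0.0131 to 0.359 over all settings. LIPA did not pass when EGBG plus SDSM replicate 1 or day 6 replicate 2 or 3 was left out, its adjusted p then reaching 0.069 and spanning 0.00757 to 0.151 over all settings.

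What spermidine and spermine change without the inhibitor was read from SDSM against day 6. The ATG8 genes MAP1LC3B, GABARAP and GABARAPL2, with WIPI2, ULK1 and ATG4A, were higher, as were the proteases CTSB, CTSH and CTSL, MCOLN1, GPNMB and ATP6V1H. ATG3, ATG5, ATG12, GRN, LIPA and SCARB2 were lower. In all, 12 of the 43 tested genes rose and 6 fell, 41.9% with a change against 25.4% of all features, of which 12.3% rose and 13% fell. By class, 6 of 22 autophagy genes rose and 3 fell, and 6 of 21 lysosomal genes rose and 3 fell. The median was 0.14 over the 43 genes and -0.02 over all features. Of the 7 genes with CACGTG, 1 rose and 1 fell, and of the 29 without it 9 rose and 5 fell. WIPI2 had 9.04, 8.34, 8.47 and 9.20 with SDSM, against 7.25, 7.20, 6.54 and 6.89 at day 6, a change of 1.80 ± 0.21 (adjusted p = 2.12e-06), with detection on 3 day 6 arrays. ATG5 had 6.45, 6.76, 6.74 and 6.96 with SDSM, against 7.72, 8.10, 7.77 and 7.87 at day 6, a change of -1.14 ± 0.18 (adjusted p = 4.72e-05), with detection on 3 SDSM arrays. MAP1LC3B had 11.77, 10.90, 10.90 and 11.86 with SDSM, against 10.52, 10.36, 10.03 and 10.65 at day 6, a change of 0.97 ± 0.23 (adjusted p = 0.00263). In each of these 3 genes the groups did not overlap. ULK1 rose by 0.89 ± 0.25, GABARAPL2 by 0.58 ± 0.14 and GABARAP by 0.45 ± 0.16, while MAP1LC3A was at 0.48 ± 0.20 (adjusted p = 0.0828). SQSTM1 had 13.54, 13.46, 13.18 and 13.43 with SDSM, against 12.75, 13.05, 13.24 and 13.28 at day 6, a difference of 0.32 ± 0.14 (adjusted p = 0.102).

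CTSB had 12.96, 12.72, 12.72 and 13.19 with SDSM, against 11.84, 11.98, 11.25 and 11.92 at day 6, a change of 1.15 ± 0.19 (adjusted p = 9.12e-05). MCOLN1, detected on 3 day 6 arrays, had 8.03, 7.52, 8.23 and 7.83 with SDSM, against 6.98, 6.44, 7.02 and 7.01 at day 6, a change of 1.04 ± 0.18 (adjusted p = 0.00013). CTSL had 12.92, 12.25, 11.73 and 12.79 with SDSM, against 11.26, 11.32, 11.53 and 11.48 at day 6, a change of 1.02 ± 0.19 (adjusted p = 0.000317). All SDSM arrays were above all day 6 arrays for these 3 genes. GPNMB had 12.05, 10.96, 10.63 and 11.92 with SDSM, against 10.38, 9.70, 11.15 and 10.25 at day 6, a change of 1.02 ± 0.31 (adjusted p = 0.0171) with overlapping groups. GRN had 10.43, 10.85, 10.47 and 10.21 with SDSM, against 12.16, 11.17, 10.64 and 11.33 at day 6, a change of -0.84 ± 0.22 (adjusted p = 0.00718), again with overlap. The melanocyte markers summed to 540 to 875 intensity units with SDSM, against 515 to 559 at day 6, and PMEL, the one detected, rose by 0.78 ± 0.20. The immune markers summed to 2783 to 3612 with SDSM, against 3684 to 5029 at day 6. CSF1R, detected on 4 SDSM and 0 day 6 arrays, rose at least 1.28-fold, CD68 fell with a change of -0.51 ± 0.17, and the part of such cells in the GPNMB change was not tested. LAMP1 had 12.02, 12.10, 12.34 and 11.76 with SDSM, against 12.31, 12.54, 11.76 and 12.27 at day 6, a difference of -0.16 ± 0.16 (adjusted p = 0.489) with overlapping groups. Of all features 12.3% rose and 13% fell with SDSM. Among the other autophagy genes 8 of the 35 tested rose and 2 fell, and among the other lysosomal genes 12 of 59 rose and 10 fell. The largest changes were in CTNS (1.68 ± 0.23), SNAP29 (1.52 ± 0.19), ATP6V1C1 (1.16 ± 0.22, detected on 3 of 4 day 6 arrays) and WDR45, a relative of the WIPI proteins (1.10 ± 0.17, detected on 3 of 4 day 6 arrays).

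Of the 18 calls, 8 held under every setting other than the table deposited as non-normalized, namely those of MAP1LC3B, GABARAPL2, WIPI2, ATG3, ATG5, CTSB, CTSL and MCOLN1. Further kept probes did not pass for ATG3 (-0.36), ATG4A (0.27) and GRN (-0.87), called from the brightest probe. A fit of the compared groups alone ended the calls of GRN and ATP6V1H, among others, and the table deposited as non-normalized those of GABARAP, ATG4A, CTSH, GRN, MCOLN1, GPNMB and LIPA. GABARAP did not pass when SDSM replicate 1, 2 or 4 or day 6 replicate 2, 3 or 4 was left out, its adjusted p then reaching 0.139 and spanning 0.00626 to 0.207 over all settings. ATG4A did not pass when SDSM replicate 1 or 4 or day 6 replicate 1 was left out, its adjusted p then reaching 0.127 and spanning 0.00887 to 0.14 over all settings. ATG12 did not pass when SDSM replicate 2, 3 or 4 or day 6 replicate 2, 3 or 4 was left out, its adjusted p then reaching 0.14 and spanning 0.00992 to 0.191 over all settings. ULK1 did not pass when day 6 replicate 3 was left out, its adjusted p then reaching 0.0506 and spanning 0.00247 to 0.0601 over all settings. CTSH did not pass when SDSM replicate 1 or 4 was left out, its adjusted p then reaching 0.0674 and spanning 0.00462 to 0.0887 over all settings. GPNMB did not pass when SDSM replicate 1 or 4 or day 6 replicate 2 was left out, its adjusted p then reaching 0.0825 and spanning 0.00405 to 1 over all settings. LIPA did not pass when day 6 replicate 3 was left out, its adjusted p then reaching 0.0579 and spanning 0.00507 to 0.107 over all settings. SCARB2 did not pass when SDSM replicate 4 or day 6 replicate 2 was left out, its adjusted p then reaching 0.0595 and spanning 0.00295 to 0.07 over all settings.

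Putrescine was compared with day 6 in the same way. Here WIPI2 alone rose, and ATG4B, ATG5, GRN, LAMP1, LAMP2 and SCARB2 fell. The 1 rise and 6 falls make 16.3% of the 43 genes, close to the 16.6% of all features that passed, of which 9.58% rose and 7% fell. By class, 1 of 22 autophagy genes rose and 2 fell, and 0 of 21 lysosomal genes rose and 4 fell, and the median was -0.12 over the 43 genes and 0.03 over all features. Rises made up 57.8% of the calls over all features, against 36.6% with scaling to the 75th percentile. WIPI2 had 8.17, 8.14, 7.78 and 7.90 with PUT, against 7.25, 7.20, 6.54 and 6.89 at day 6, a change of 1.03 ± 0.21 (adjusted p = 0.00209), with detection on 3 day 6 arrays. ATG5 had 7.55, 7.38, 7.38 and 6.88 with PUT, against 7.72, 8.10, 7.77 and 7.87 at day 6, a change of -0.57 ± 0.18 (adjusted p = 0.0293). LAMP2 had 11.28, 11.56, 11.32 and 11.42 with PUT, against 11.79, 12.19, 11.63 and 11.98 at day 6, a change of -0.50 ± 0.14 (adjusted p = 0.0138). The groups were apart on all arrays for these 3 genes. ATG4B, detected on 0 PUT arrays and 2 day 6 arrays, was lower (adjusted p = 0.022, means 5.89 and 7.06), with an approximate bound of 1.38-fold. GRN had 10.41, 10.79, 10.22 and 10.47 with PUT, against 12.16, 11.17, 10.64 and 11.33 at day 6, a change of -0.85 ± 0.22 (adjusted p = 0.0112). LAMP1 had 11.47, 11.77, 11.51 and 11.74 with PUT, against 12.31, 12.54, 11.76 and 12.27 at day 6, a change of -0.60 ± 0.16 (adjusted p = 0.0137). Both overlapped between the groups. SQSTM1 had 13.35, 13.36, 13.24 and 13.33 with PUT, against 12.75, 13.05, 13.24 and 13.28 at day 6, a difference of 0.24 ± 0.14 (adjusted p = 0.269). MAP1LC3B had 10.33, 10.79, 10.91 and 11.29 with PUT, against 10.52, 10.36, 10.03 and 10.65 at day 6, a difference of 0.44 ± 0.23 (adjusted p = 0.193). The groups overlapped for SQSTM1 and MAP1LC3B, and neither passed. Of the wider pathway, 1 of the 35 tested rose and 0 fell among other autophagy genes, and 3 of 59 rose and 6 fell among other lysosomal genes, with SUMF1, which activates sulfatases (-1.03 ± 0.20), SNAP29 (0.89 ± 0.19), CTNS (0.75 ± 0.23) and the fucosidase FUCA1 (-0.73 ± 0.23, detected on 2 of 4 PUT arrays) in front.

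Of the 7 calls, 1 held under every setting other than the table deposited as non-normalized, that of WIPI2. Further kept probes did not pass for LAMP2 (-0.04, -0.36 and -0.000997, 3 of 5 further probes), called from the brightest probe, and further kept probes passed for GPNMB (-0.87), whose brightest probe did not. The WIPI2 call ended in the table deposited as non-normalized. ATG4B did not pass when PUT replicate 1 or 4 or day 6 replicate 1 or 3 was left out, its adjusted p then reaching 0.0928 and spanning 0.00987 to 0.0928 over all settings. ATG5 did not pass when PUT replicate 4 or day 6 replicate 2 was left out, its adjusted p then reaching 0.128 and spanning 0.00403 to 0.128 over all settings. LAMP1 did not pass when PUT replicate 1 was left out, its adjusted p then reaching 0.0521 and spanning 0.00218 to 0.0521 over all settings. LAMP2 did not pass when PUT replicate 1 or day 6 replicate 2 was left out, its adjusted p then reaching 0.0519 and spanning 0.00168 to 0.0615 over all settings. GRN did not pass when day 6 replicate 1 was left out, its adjusted p then reaching 0.0545 and spanning 0.00126 to 0.0632 over all settings. SCARB2 did not pass when PUT replicate 1, 3 or 4 or day 6 replicate 1, 2 or 4 was left out, its adjusted p then reaching 0.16 and spanning 0.0166 to 0.16 over all settings.

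Putrescine is the diamine from which spermidine and spermine are built by adding aminopropyl groups, and SDSM and PUT, both labelled as 1 mM from day 3, form 1 pair of related treatments. Against PUT, SDSM gave higher MAP1LC3A, GABARAP, GABARAPL2, WIPI2 and ULK1 of the autophagy machinery and higher GPNMB, MCOLN1, LAMP2 and cathepsin genes CTSA, CTSB, CTSH and CTSL, and lower ATG5. In all, 12 of the 43 tested genes rose and 1 fell, 30.2% with a change against 17% of all features, of which 7.1% rose and 9.93% fell. By class, 5 of 22 autophagy genes rose and 1 fell, and 7 of 21 lysosomal genes rose and 0 fell, and the median was 0.31 over the 43 genes and -0.04 over all features. Rises were 41.7% of the calls over all features, against 56.9% with scaling to the 75th percentile.

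MAP1LC3A had 11.55, 11.57, 11.25 and 11.51 with SDSM, against 10.57, 10.30, 10.52 and 10.79 with PUT, a change of 0.93 ± 0.20 (adjusted p = 0.00233). ULK1 had 12.16, 12.27, 12.53 and 12.02 with SDSM, against 11.32, 11.40, 11.11 and 11.46 with PUT, a change of 0.92 ± 0.25 (adjusted p = 0.0116). WIPI2 had 9.04, 8.34, 8.47 and 9.20 with SDSM, against 8.17, 8.14, 7.78 and 7.90 with PUT, a change of 0.77 ± 0.21 (adjusted p = 0.0152). SDSM arrays were above all PUT arrays for the 3 genes. ATG5, detected on 3 SDSM arrays, had 6.45, 6.76, 6.74 and 6.96 with SDSM, against 7.55, 7.38, 7.38 and 6.88 with PUT, a change of -0.57 ± 0.18 (adjusted p = 0.0281), with overlapping groups. GPNMB had 12.05, 10.96, 10.63 and 11.92 with SDSM, against 9.72, 9.31, 9.43 and 10.08 with PUT, a change of 1.76 ± 0.31 (adjusted p = 0.000394), and the melanocyte markers summed to 540 to 875 intensity units with SDSM, against 646 to 775 with PUT. The immune markers summed to 2783 to 3612 with SDSM, against 3657 to 4127 with PUT, CD14 being lower (-0.99 ± 0.31), and the part of such cells was not tested. MCOLN1 had 8.03, 7.52, 8.23 and 7.83 with SDSM, against 7.15, 6.58, 6.99 and 6.91 with PUT, a change of 1.00 ± 0.18 (adjusted p = 0.000429). Neither gene overlapped between the groups. CTSB had 12.96, 12.72, 12.72 and 13.19 with SDSM, against 11.95, 11.95, 11.71 and 12.08 with PUT, a change of 0.97 ± 0.19 (adjusted p = 0.000988). CTSA rose by 0.84 ± 0.22 without overlap, and CTSL by 0.78 ± 0.19 with overlap.

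Where the 2 treatments did not differ past the threshold, the intervals bound the difference. It was 0.08 (95% interval -0.21 to 0.38) for SQSTM1, 0.53 (95% interval 0.06 to 1.00) for MAP1LC3B, 0.22 (95% interval -0.05 to 0.49) for WIPI1, 0.02 (95% interval -0.44 to 0.48) for GRN and 0.07 (95% interval -0.19 to 0.34) for ATP6V1A. The replicate numbers pair these groups too, and with the number as a block GABARAPL1 (adjusted p = 0.0205) and LAMP1 (0.0483) were also higher with SDSM. In the wider lists, 6 of the 35 tested rose and 1 fell among other autophagy genes, and 9 of 59 rose and 2 fell among other lysosomal genes. Over all features 7.1% rose and 9.93% fell. The largest changes in these lists were in the transcription factor FOXO3 (1.01 ± 0.21), CTNS (0.93 ± 0.23), the protease CTSV (0.80 ± 0.17) and GNPTG, of the enzyme that tags lysosomal proteins with mannose phosphate (0.78 ± 0.16).

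Of the 13 calls, 8 held under every setting other than the table deposited as non-normalized, namely those of MAP1LC3A, GABARAPL2, ULK1, CTSA, CTSB, CTSL, MCOLN1 and GPNMB. By probe, further kept probes did not pass for GABARAPL2 (0.48) and LAMP2 (0.06, 0.01 and -0.08, 3 of 5 further probes), called from the brightest probe. The table deposited as non-normalized ended the calls of GABARAP, WIPI2, ATG5, MCOLN1 and GPNMB. GABARAP did not pass when SDSM replicate 1, 2 or 4 or PUT replicate 2, 3 or 4 was left out, its adjusted p then reaching 0.0862 and spanning 0.0185 to 0.395 over all settings. WIPI2 did not pass when SDSM replicate 1 or 4 or PUT replicate 3 was left out, its adjusted p then reaching 0.0702 and spanning 0.00544 to 0.0702 over all settings. ATG5 did not pass when SDSM replicate 1 or 3 or PUT replicate 1, 2 or 3 was left out, its adjusted p then reaching 0.1 and spanning 0.00914 to 0.118 over all settings. LAMP2 did not pass when SDSM replicate 1, 2, 3 or 4 or PUT replicate 1, 3 or 4 was left out, its adjusted p then reaching 0.116 and spanning 0.00432 to 0.186 over all settings. CTSH did not pass when SDSM replicate 1 or 4 or PUT replicate 2 was left out, its adjusted p then reaching 0.0657 and spanning 0.00624 to 0.0657 over all settings.

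In the presence of SDSM few features passed between cells with and without EGBG in the fit without a block. A gene that did not pass may still differ. In EGBG plus SDSM against SDSM, limma called 0 of the 43 genes, against 0.988% of all features (0.56% higher and 0.428% lower), and 3 of the 43 had an unadjusted p-value under 0.05. The median was -0.01 over the 43 genes and 0.01 over all features. The largest differences were in CTSL at -0.60 ± 0.19 (adjusted p = 0.126), MCOLN1 at -0.57 ± 0.18 (adjusted p = 0.119) and ATG5 at 0.56 ± 0.18 (adjusted p = 0.125). The replicate numbers pair these groups, and with the number as a block MCOLN1 was lower with EGBG plus SDSM (adjusted p = 0.0489). For MAP1LC3A the difference was -0.07 (95% interval -0.48 to 0.34), and for WIPI1 0.04 (95% interval -0.23 to 0.31). Rises were 56.7% of the calls over all features, against 67.4% without background correction.

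The difference between those 2 effects of EGBG, tested as an interaction, passed for 6 genes, 3 with a positive and 3 with a negative difference, 14% of the 43 against 18.5% of all features (9.72% positive and 8.76% negative). MAP1LC3A changed with EGBG by -0.07 ± 0.20 in the presence of SDSM and by -2.24 ± 0.20 without it, a difference of 2.17 ± 0.28 (adjusted p = 4.18e-06). In WIPI1 the EGBG effects were 0.04 ± 0.13 with SDSM and -0.93 ± 0.13 without, a difference of 0.97 ± 0.19 (adjusted p = 0.000519), and for GLA they were 0.25 ± 0.17 with SDSM and -0.45 ± 0.17 without, a difference of 0.70 ± 0.23 (adjusted p = 0.0398). The lysosomal genes GPNMB, CTSL and LAMP1 differed in the other direction. SDSM alone also raised GPNMB (1.02) and CTSL (1.02) over day 6, the direction of EGBG alone, and LAMP1 did not pass there. For GPNMB the EGBG effects were -0.55 ± 0.31 with SDSM and 1.80 ± 0.31 without, a difference of -2.35 ± 0.44 (adjusted p = 0.000416). In CTSL they were -0.60 ± 0.19 with SDSM and 1.05 ± 0.19 without, a difference of -1.64 ± 0.27 (adjusted p = 9.53e-05), and for LAMP1 they were -0.09 ± 0.16 with SDSM and 0.60 ± 0.16 without, a difference of -0.69 ± 0.23 (adjusted p = 0.0387). The median difference was -0.08 over the 43 genes and -0.05 over all features, and 52.6% of the calls over all features were positive, against 70.4% in the table deposited as non-normalized. Among the other autophagy genes 6 of the 35 tested had a positive and 0 a negative difference past the threshold, and among the other lysosomal genes 6 of 59 had a positive and 10 a negative one. The largest were in ATP6V1C2 (2.95 ± 0.24), RRAGD (-1.92 ± 0.38), BNIP3 (1.65 ± 0.19) and CTSF (-1.57 ± 0.21).

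Of the 6 calls, 4 held under every setting other than the table deposited as non-normalized, namely those of MAP1LC3A, WIPI1, CTSL and GPNMB. Further kept probes passed for ATG4A (0.85), ATG16L1 (-0.68) and LAMP2 (-0.91, 1 of 5 further probes), whose brightest probe did not. The table deposited as non-normalized ended the calls of LAMP1 and GPNMB. LAMP1 did not pass when EGBG plus SDSM replicate 3 or 4 or EGBG replicate 1 or 2 or SDSM replicate 1, 2 or 3 or day 6 replicate 3 or 4 was left out, its adjusted p then reaching 0.0899 and spanning 0.0121 to 0.197 over all settings. GLA did not pass when EGBG plus SDSM replicate 2, 3 or 4 or EGBG replicate 1, 2 or 3 or SDSM replicate 1, 2, 3 or 4 or day 6 replicate 2, 3 or 4 was left out, its adjusted p then reaching 0.0964 and spanning 0.0132 to 0.0964 over all settings.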

How the data were processed

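Total RNA in 24 samples of N/TERT1 cells was measured on Illumina bead arrays, and the submitters' processing notes name GenomeStudio, with no version. In the deposited series matrix the values are linear intensity, one per probe, from -67.97 to 68803.6, not normalized between arrays. A table the authors deposited as non-normalized gave the detection p-value of each probe and array. Its own signals look normalized and are floored at 40 (65.7% of values), so they served only as an alternative. Intensities were corrected with neqc (limma 3.58.1 in R 4.3.3, offset 16, quantile normalization, log2). Probes detected at p under 0.01 on 4 or more arrays were kept (14304), and the brightest mean probe of a gene stood for it, giving 12149 features, 9034 of them named. For 13 of the tested genes with further kept probes, 46 of the 63 pairs of a called change and a further probe gave the same call and 0 the opposite one. In 15 of these pairs the further probe had the same sign and did not pass, and in 2 it had the opposite sign and did not pass. In 14 of 90 pairs whose brightest probe did not pass the further probe passed. In the platform annotation 30102 probes carried 1 gene symbol, 8 carried several and 17194 carried none.

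All 24 arrays entered 1 lmFit and eBayes fit of 6 group means, as planned, with two-sided contrasts and Benjamini-Hochberg adjustment over 12149 features. The code was run on simulated data with independent noise and few changed features. The real data have many changed features and, in some comparisons, correlated same-numbered arrays. That run therefore does not bear on single calls here. The number of arrays limits the precision. Values per array are given for MAP1LC3B, SQSTM1 and LAMP1 and for up to 6 autophagy and 6 lysosomal genes with the largest changes past the threshold in a comparison. Of the other autophagy and lysosome genes, up to 4 are named. The genes, the lists and these rules were chosen with earlier results of these data known. Promoters are RefSeq sequences of GRCh38.p14.

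Same-numbered arrays were checked by the correlation of their deviations from the group means. Of 32 pairs 25 were over 0.1, with a range of -0.257 to 0.571. Every pair was over 0.1 in EGBG against day 6, SDSM against PUT and EGBG plus SDSM against SDSM. Pairing there rests on the labels' replicate numbers and this check. Counts, SEs, intervals and calls of these comparisons still come from the fit without a block. Calls that the replicate number as a block added are named beside them and are not in the counts. Alternatives were no background correction, scaling to the 75th percentile, no filter, detection on all 4 arrays of a group, the normalized table, the mean of detected probes, only the compared groups, trended robust variances, the replicate number as a block and leaving out each array.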

Additional observations from a re-analysis of the deposited data

Results flagged for a closer look

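The highest or lowest array of a group was set apart when its gap to the nearest of the other arrays, as a share of the group's range, was above Dixon's 95% critical value for 4 arrays. This was so for 16 of 258 groups looked at, and chance gives about 1 in 20. GABARAP was lowest on undifferentiated replicate 2 at 6.78, with the nearest array at 7.25 (share 0.967). On SDSM replicate 4, GABARAPL1 had its highest value of the group, 9.13 against 8.51 on the nearest array (share 0.859). GABARAPL1 was lowest on PUT replicate 2 at 7.57, with the nearest array at 8.22 (share 0.846). On EGBG plus SDSM replicate 2, SQSTM1 had its lowest value of the group, 13.17 against 13.45 on the nearest array (share 0.943). ATG3 was highest on undifferentiated replicate 4 at 10.89, with the nearest array at 10.53 (share 0.897). On EGBG plus SDSM replicate 1, ATG3 had its lowest value of the group, 9.69 against 10.02 on the nearest array (share 0.861). ATG4B was highest on SDSM replicate 3 at 7.64, with the nearest array at 5.83 (share 0.852). On undifferentiated replicate 1, ATG101 had its lowest value of the group, 7.83 against 8.05 on the nearest array (share 0.837). BECN1 was lowest on EGBG plus SDSM replicate 1 at 9.23, with the nearest array at 9.93 (share 0.872). On undifferentiated replicate 1, CTSL had its highest value of the group, 13.08 against 12.63 on the nearest array (share 0.831). PSAP was highest on EGBG replicate 2 at 14.13, with the nearest array at 13.87 (share 0.886). On day 6 replicate 2, MCOLN1 had its lowest value of the group, 6.44 against 6.98 on the nearest array (share 0.921). ATP6V0D1 was highest on SDSM replicate 3 at 9.92, with the nearest array at 8.75 (share 0.844). On EGBG plus SDSM replicate 3, ATP6V0D1 had its highest value of the group, 8.65 against 8.45 on the nearest array (share 0.875). ATP6V1A was highest on EGBG plus SDSM replicate 1 at 12.92, with the nearest array at 12.72 (share 0.883). On day 6 replicate 3, ATP6AP1 had its lowest value of the group, 11.44 against 12.52 on the nearest array (share 0.935). ATG4B, ATG101, ATP6V0D1 and CTSD shared a pattern across arrays. Each was higher on day 6 replicates 1 and 3, EGBG replicates 1 and 3 and SDSM replicate 3 than on the other arrays of those groups. The changes of these genes are therefore not independent observations. What sets these arrays apart was not tested. 

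The effect of EGBG differed between cells with and without SDSM, by limma's interaction term, in 6 genes. The difference in log2 change was 2.17 for MAP1LC3A (adjusted p = 4.18e-06), 0.97 for WIPI1 (0.000519) and 0.70 for GLA (0.0398). It was -2.35 for GPNMB (0.000416), -1.64 for CTSL (9.53e-05) and -0.69 for LAMP1 (0.0387).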

How the results depend on the processing

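Of 135 called changes over the comparisons, 0 turned their sign under any setting, and 135 kept their call with the replicate block, with detection on all 4 arrays of a group and with trended robust variances. The replicate block added 15 calls and ended 0. Outside the comparisons with every pair over 0.1, LAMP2 was added in EGBG plus SDSM against EGBG. GRN and MCOLN1 were added in EGBG plus SDSM against day 6. OPTN and ATG4B were added in SDSM against day 6, and OPTN and ATG7 in PUT against day 6. PSAP was added in the interaction. In these comparisons of 2 groups the replicate 1 pairs had correlations of -0.257 to -0.0919. The pairs of the other replicate numbers had 0.114 to 0.515, and the interaction was not checked in this way. Over all comparisons 22 arrays of 32 pairs were best matched by their own number. Calls were lost for 3 changes without background correction, 7 with the mean of detected probes, 15 with scaling to the 75th percentile, 22 without a filter, 35 with only the compared groups and 39 with the table deposited as non-normalized. Genes lower with EGBG against day 6 (9 as reported) numbered 5 with scaling to the 75th percentile, 5 without a filter and 4 with only the compared groups. Genes lower with SDSM against PUT (1 as reported) numbered 0 with that scaling, without a filter and in the table deposited as non-normalized, and 2 with only the compared groups. With PUT against day 6, those lower (6) numbered 3 without a filter and 1 with only the compared groups, and those higher (1) numbered 0 in that table and 2 with the replicate block. In the same table, 5 genes were lower at day 6 (11), 5 higher with EGBG (12), 1 lower with EGBG plus SDSM against SDSM (0, and 1 with the replicate block) and 5 positive in the interaction (3). With only the compared groups, EGBG plus SDSM against day 6 had 3 higher (7) and 1 lower (4), and SDSM against day 6 had 7 higher (12) and 3 lower (6). Trended robust variances gave 5 negative interactions (3). Leaving out 1 array gave 5 to 9 genes lower with EGBG, 2 to 4 lower with EGBG plus SDSM against day 6, 1 to 2 higher and 2 to 8 lower with PUT, 0 to 1 lower with SDSM against PUT, 0 to 1 lower with EGBG plus SDSM against SDSM and 2 to 5 negative interactions. The cause of these shifts was not tested. No slide was given for the arrays, so the slide as a block was not run. ATG4B and MCOLN1 have only bounds against groups in which 0 of 4 arrays detected them. Those that use the day 6 levels are approximate, since not all day 6 arrays detected these genes. CTSZ at day 6, GPNMB in undifferentiated cells and MCOLN1 with EGBG were detected on 1 of 4 arrays, and their changes are given as fitted.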
